A study of Mus musculus with 4 samples.

Results

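The cells described here are bone marrow progenitors of the mouse that carried the transcripts of 3 neutrophil-lineage genes together: at least 5 UMIs (unique transcript tags) of Elane, at least 1 of Ms4a3 and at least 1 of Ctsg. They are called the Elane Ms4a3 Ctsg progenitors. They were 400 of the 33042 cells that had at least 1000 genes, at most 10% mitochondrial UMIs, and a leading hashtag with at least 10 UMIs and at least 3 times the next hashtag. The cells were thus selected on the values of Elane, Ms4a3 and Ctsg, so the contrast with the other 32642 cells is a description of the chosen cells and was not tested.

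Both mice of the series were males with the genotype Tppp3CreER LSLTdTomato, in which the Tppp3 gene drives a tamoxifen-inducible Cre and Cre action switches on tdTomato. Both received tamoxifen at postnatal days 0 and 3 and their cells were collected at 3 months of age. Bone marrow was enriched for c-Kit, and cells were sorted as Lin-Sca+Kit+, that is negative for lineage antigens and positive for Sca-1 and Kit. Each mouse gave a tdTomato-positive tube, holding cells that had active Cre in the newborn or descend from such cells, and a tdTomato-negative tube, so no untreated or Cre-free mouse enters any comparison. The 4 tubes carried 4 hashtag antibodies, were pooled, and were run on both the GEM-X and the v3.1 droplet chemistry of 10x Genomics. The labels describe the sort both as 4 hashed samples and as 1 positive and 1 negative tube for the pair of mice, and each hashtag was read as 1 mouse and 1 gate.

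Neutrophils store proteases and myeloperoxidase in primary (azurophilic) granules, which are filled early, in promyelocytes. Elane (neutrophil elastase), Prtn3 (proteinase 3) and Ctsg (cathepsin G) are serine proteases of these granules, and Ms4a3 is a membrane protein of granulocyte-monocyte progenitors. Granulocyte-monocyte progenitors choose between neutrophil and monocyte fates under transcription factors that include C/EBP epsilon (Cebpe) and GFI1 on the neutrophil side and IRF8 on the monocyte and dendritic side. Such progenitors are classically sorted as Sca-1-negative.

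The promoters of the 4 marker genes are shown because these genes are the identity of the cells and are transcribed together in them. Each line is the 250 bases before the RefSeq start (GRCm38.p6), read along the gene, with the matches of 5 short motifs in capitals. The windows lie at chr10:79886062-79886311 (Elane, plus strand), chr10:79879417-79879666 (Prtn3, plus strand), chr14:56102575-56102824 (Ctsg, minus strand) and chr19:11640852-11641101 (Ms4a3, minus strand). In the GENCODE M21 annotation all 4 are protein-coding, Prtn3 and Elane lie 3072 bases apart, and the gene models of both start upstream of the RefSeq starts.
Elane: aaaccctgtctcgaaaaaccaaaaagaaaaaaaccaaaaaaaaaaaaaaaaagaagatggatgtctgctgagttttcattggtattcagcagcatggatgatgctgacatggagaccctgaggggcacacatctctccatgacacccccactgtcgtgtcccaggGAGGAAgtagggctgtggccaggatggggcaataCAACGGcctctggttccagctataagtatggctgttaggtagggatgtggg
Prtn3: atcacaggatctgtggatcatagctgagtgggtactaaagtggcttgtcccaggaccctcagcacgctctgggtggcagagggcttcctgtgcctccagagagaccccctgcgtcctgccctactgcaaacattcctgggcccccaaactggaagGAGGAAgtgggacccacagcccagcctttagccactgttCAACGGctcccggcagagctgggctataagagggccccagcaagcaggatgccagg
Ctsg: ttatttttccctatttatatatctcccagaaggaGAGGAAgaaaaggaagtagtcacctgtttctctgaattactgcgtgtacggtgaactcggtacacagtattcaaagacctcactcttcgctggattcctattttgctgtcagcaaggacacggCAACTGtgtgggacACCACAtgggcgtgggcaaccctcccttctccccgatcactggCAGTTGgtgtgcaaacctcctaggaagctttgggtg
Ms4a3: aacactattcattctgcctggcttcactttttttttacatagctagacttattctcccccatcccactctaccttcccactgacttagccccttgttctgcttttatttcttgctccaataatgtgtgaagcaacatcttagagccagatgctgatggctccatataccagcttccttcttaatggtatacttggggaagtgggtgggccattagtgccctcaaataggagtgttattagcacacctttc

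The motifs, searched on both strands, were GAGGAA (an ETS core of the kind PU.1 binds), CAACNG (MYB), TGTGGT (RUNX), TTGCNNAA (C/EBP) and AAATCA (GFI1). GAGGAA stood in 3 of the 4 windows, at bases -85 to -80 before the Elane start, -95 to -90 before Prtn3 and -216 to -211 before Ctsg. It stood in 23.4% of 32536 mouse promoter windows of the same length. CAACNG also stood in 3 of the 4, at -51 to -46 in Elane, -56 to -51 in Prtn3, and -93 to -88 and -36 to -31 in Ctsg, against 29.2% of all windows. Elane and Prtn3, which are neighbours, thus had the same pair of letters in the same order and at similar distances from the start. Ctsg also held TGTGGT (14% of all windows), on the reverse strand at -79 to -74. TTGCNNAA and AAATCA (9.57% and 12.3% of all windows) were in none of the 4, and Ms4a3 had no match. A match is a description of the letters and not of binding.

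The rule found 222 progenitors with GEM-X and 178 with v3.1, from 20511 and 17755 deposited barcodes, and 0 barcodes were shared between the libraries. The GEM-X library held 234563105 gene UMIs and the v3.1 library 178214937. The progenitors were deep cells, with a median of 28289 UMIs (GEM-X) and 25291 UMIs (v3.1), against 9220 and 7569 UMIs in the other cells. Summed over progenitors, the tdTomato-positive tubes held 3148674 (mouse 1) and 652217 UMIs (mouse 2), and the tdTomato-negative tubes 4522102 and 2206299 UMIs.

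A progenitor held a median of 117 Elane UMIs, in a range from 5 to 771. Of the 400 cells, 280 had 50 or more, 85 had 10 to 49 and 35 had 5 to 9, so most lay far above the limit. The 35 cells just inside it had medians of 47 Prtn3 and 27 Ctsg UMIs, and 8.57% of them held a Cebpe UMI. The 24 cells just outside it, with 3 or 4 Elane UMIs, Ms4a3 and Ctsg, had medians of 39.5 Prtn3 and 24.5 Ctsg UMIs, and 20.8% held a Cebpe UMI. Cells on both sides of the limit thus held similar amounts of the other granule proteases. At least 1 Elane UMI was present in 9.10% of the other cells (median depth 8555 UMIs). B-lineage cells, which should lack the gene, had one in 6.98% (median depth 10280 UMIs) and never more than 2, so a single Elane UMI is at background.

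**Figure D1:**
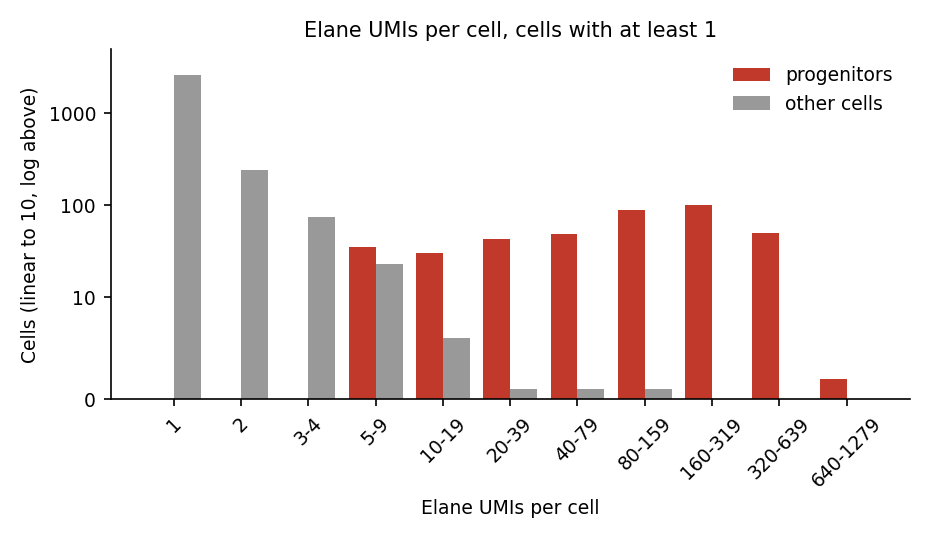
Number of cells (y axis, linear to 10 and logarithmic above) by Elane UMIs per cell (x axis), for the progenitors (red) and the other cells with at least 1 Elane UMI (grey), both chemistries together. The progenitors reach 771 UMIs and 280 of the 400 have 50 or more, while the other cells are mostly at 1 UMI.

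In CPM, the summed UMIs scaled to the same total in every tube, Elane stood at 6434 and 5420 in the tdTomato-positive tubes (mouse 1, mouse 2) and 5105 and 6160 in the tdTomato-negative tubes. In the other cells of the same tubes it stood at 16.2 and 12.2, and 10.9 and 10.4 CPM. Mean levels were 5780 ± 621 CPM in the progenitors and 12.4 ± 2.61 CPM in the other cells (SD, n = 4 tubes). Prtn3, the marker that the rule did not use, averaged 6150 ± 548 against 252 ± 46.3 CPM. Myeloperoxidase (Mpo), which makes hypochlorous acid in the granule, averaged 5560 ± 500 against 300 ± 66.1 CPM. Elane, Prtn3, Mpo and Ctsg made up a median of 1.83% of all UMIs of a progenitor, and 8.25% in the highest cell.

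Across genes with a mean of at least 10 CPM, 26.7% were higher and 52.7% lower in the progenitors than in the other cells in all 4 tubes (9041 genes, median log2 ratio -0.24), and the lists below are to be read against those shares. Of the 8 primary granule genes that the rule did not use, 7 were higher in all 4 tubes. They included serglycin (Srgn), the proteoglycan that packs granule proteins, at 1642 ± 152 against 871 ± 20.9 CPM, and Prss57, another granule serine protease, at 148 ± 23.4 against 16.7 ± 3.26 CPM. Lysozyme (Lyz2) was the exception, at 106 ± 26.5 against 127 ± 5.92 CPM. All 14 genes of protein folding in the endoplasmic reticulum, through which granule proteins pass, were higher. The chaperone BiP (Hspa5) averaged 1087 ± 80.1 against 309 ± 15.8 CPM and calreticulin (Calr) 1964 ± 241 against 425 ± 29.4 CPM. All 6 genes of the phagocyte oxidase were higher as well. Its catalytic subunit Cybb averaged 28.1 ± 13 against 1.48 ± 0.942 CPM, and its cytosolic subunit Ncf1 82.0 ± 7.51 against 27.5 ± 7.17 CPM.

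Of 8 granulocyte transcription factors, 7 were higher in all 4 tubes and 1 was lower. Cebpe stood at 93.7 and 70.5 CPM in the tdTomato-positive tubes and 67.7 and 124 in the tdTomato-negative tubes, against 0.769 to 1.28 CPM in the other cells of the 4 tubes. Cebpe is needed for secondary granule genes, and it was detected in 54.5% of the progenitors. Cebpa, which acts earlier, averaged 60.1 ± 5.64 against 12.1 ± 2.53 CPM, and Gfi1 50.6 ± 3.30 against 18.8 ± 0.806 CPM. Runx1, needed for the emergence of stem cells, was lower, at 515 ± 55.1 against 833 ± 8.98 CPM. After Elane, the genes with the largest ratios to the other cells included Ly6c2, a surface antigen of monocytes and early granulocytes (575 ± 117 against 1.89 ± 0.413 CPM), Trem3, haptoglobin (Hp; 180 ± 17.5 against 1.87 ± 0.467 CPM), the IgG receptor Fcgr3 and histidine decarboxylase (Hdc; 66.3 ± 4.26 against 0.882 ± 0.230 CPM).

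**Figure D2:**
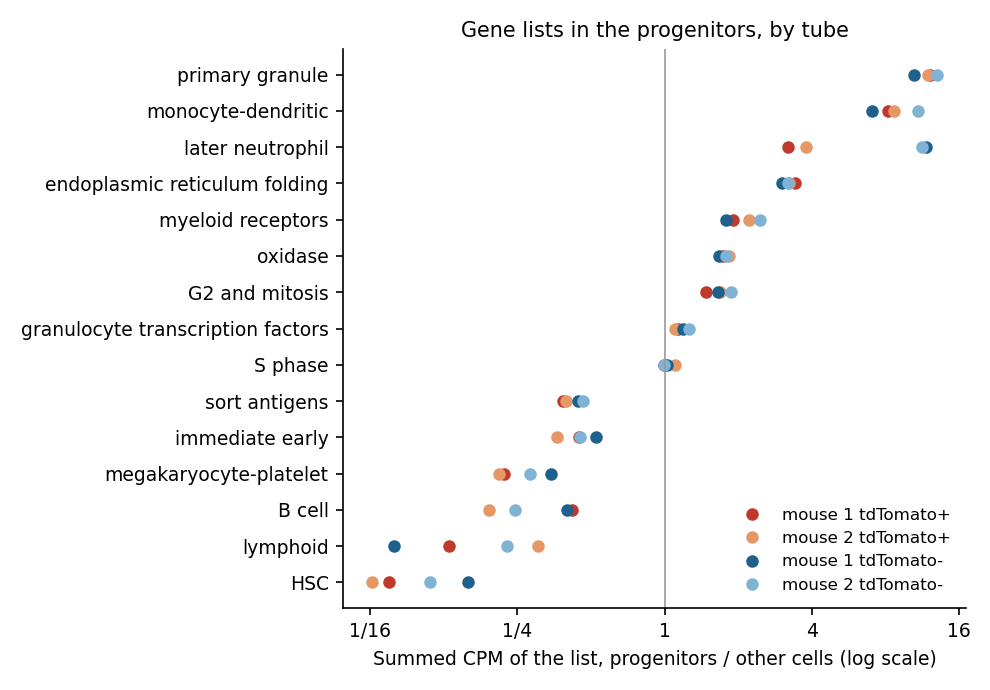
Summed CPM of each gene list in the progenitors divided by that in the other cells (x axis, log scale), 1 point per tube (red and orange tdTomato-positive, dark and light blue tdTomato-negative). Primary granule genes lie far right of 1 and HSC, lymphoid and B cell genes left of it in all 4 tubes.

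The sort antigens and the stem cell program went the other way. Of 8 surface markers used to divide this compartment, 7 were lower in all 4 tubes. Kit averaged 131 ± 17.7 against 339 ± 44.1 CPM and was detected in 92.2% of the progenitors. Ly6a, which encodes the Sca-1 antigen of the sort, averaged 9.71 ± 1.65 against 63.7 ± 4.69 CPM and was detected in 17.8%, so the Sca-1 transcript was low in cells sorted for the antigen. Cd48, which is carried by restricted progenitors, was higher, at 140 ± 12.9 against 113 ± 17.1 CPM. All 12 stem cell genes were lower, among them Mecom (41.6 ± 23.0 against 530 ± 31.8 CPM) and Hlf (32.4 ± 15.3 against 412 ± 37.7 CPM), both transcription factors of stem cell self-renewal. The receptor gene Flt3 averaged 37.0 ± 13.3 against 315 ± 54.0 CPM. All 8 megakaryocyte genes were lower, and so were 8 of 9 erythroid genes (Epor was at 0), all 6 lymphoid genes (Rag1 at 0) and 7 of 8 B cell genes (Pax5 was at 0). Of 8 T and NK cell genes 6 were lower (Cd3e, Cd3g and Il2rb at 0), of 5 macrophage genes 2 were higher and 2 lower, and of 10 mast cell, basophil and eosinophil genes 3 were higher and 1 lower.

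Genes of division were higher. Of 16 genes of G2 and mitosis, 15 were higher in all 4 tubes, such as Ccnb1, the mitotic cyclin B1 (74.4 ± 8.73 against 31.9 ± 3.15 CPM), while of 16 S phase genes 6 were higher and 6 lower. With each cell thinned to 4000 UMIs, 84.75% of progenitors held at least 3 UMIs of the G2 and mitosis list, against 29.0% of the other cells and 57.5% of Mpo-primed cells (at least 5 Mpo UMIs, not progenitors, under 5 Elane UMIs). Other classes lay closer, at 78.6% of B-lineage cells, 70.3% of monocyte-dendritic cells (at least 5 Irf8 UMIs) and 69.6% of the mast cell and basophil class (at least 5 Cpa3 UMIs and Ms4a2 or Gata2). The unthinned medians were 26.3 UMIs of the list per 10000 in the progenitors, 1.92 in the other cells, 10.2 in the Mpo-primed, 19.7 in the B-lineage, 22.9 in the monocyte-dendritic and 24.3 in the mast cell and basophil class. The thinning kept 400 of 400 progenitors, 30827 of 32642 other cells, 6062 of 6109 Mpo-primed cells and 187 of 258 B-lineage cells. All 8 immediate early genes were lower in the progenitors, with a summed level of 115 against 257 CPM (Atf3 was at 0).

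The working name of these cells, granulocyte-committed, fitted only a share of them. Of the 12 monocyte-dendritic genes 8 were higher than in the other cells in all 4 tubes. Irf8 stood at 141 and 176 CPM in the tdTomato-positive tubes and 127 and 130 in the tdTomato-negative tubes, against 24.4 to 37.8 CPM in the other cells. F13a1, the coagulation factor XIII A chain of monocytes, averaged 179 ± 45.7 against 4.28 ± 1.61 CPM. The defining dendritic genes Siglech and Batf3 were at 0. With a limit of 3 UMIs, set after the values were seen, 143 progenitors were high in Irf8 and not in Cebpe, 111 were high in Cebpe and not in Irf8, 15 were high in both and 131 in neither. These are ranges and not cell types: 73 progenitors had 2 to 4 Irf8 UMIs and 81 had 2 to 4 Cebpe UMIs. The tdTomato-positive tubes had 34.4% (mouse 1) and 48.1% (mouse 2) of their progenitors in the Irf8 range, and the tdTomato-negative tubes 37.2% and 31%. The gates overlap.

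The Irf8 range and the Cebpe range both held the granule genes, at lower levels in the Irf8 range, and differed in other genes too. Summed over cells, the Irf8 range held 4418 CPM of Elane and the Cebpe range 8405, and Prtn3 was at 5744 and 7404 CPM. Ms4a3 was at 580 and 1301 CPM, and Ctsg at 2284 and 3469 CPM. Elane, Prtn3, Ms4a3 and Ctsg were lower in the Irf8 range in each of the 4 tubes. F13a1 stood at 431 CPM in the Irf8 range and 22.6 CPM in the Cebpe range. Ly86, a partner of the receptor RP105, stood at 166 against 6.89 CPM, the monocyte growth factor receptor Csf1r at 41.1 against 5.25 CPM, and the chemokine receptor Ccr2 at 84.1 against 6.89 CPM. Gfi1, which represses monocyte genes, was lower in the Irf8 range, at 26.6 against 78.1 CPM. It stood there at 29.7 and 26.7 CPM in the tdTomato-positive tubes and 25.5 and 24.3 in the tdTomato-negative tubes. In the Cebpe range the same tubes held 75.6 and 84.4, and 74.5 and 83.9 CPM. Both ranges were apart in Gfi1, F13a1, Csf1r, Ccr2 and Ly86 in each of the 4 tubes. Ly6c2 and Fcgr3 did not keep their direction in every tube. In the mouse 2 tdTomato-positive tube Ly6c2 stood at 804 CPM in the Irf8 range and 850 in the Cebpe range, which held 6 cells there. In the mouse 2 tdTomato-negative tube Fcgr3 stood at 106 and 103 CPM. The genes named are examples, and the share of all genes that separated the ranges was not counted.

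Of 16 later neutrophil genes, 6 were higher and 2 lower than in the other cells in all 4 tubes, and they were carried by few cells. S100a8, a calcium-binding protein that is among the most abundant of mature neutrophils, had 4981 UMIs in the progenitors, but 60 cells held any and 4 cells held at least 50% of them. S100a9 was found in 29 progenitors, Camp (cathelicidin, a secondary granule peptide) in 24, Chil3 in 15 and Ngp (neutrophilic granule protein) in 11. Ltf (lactoferrin) had 1 UMI, and Ly6g, the antigen of mature neutrophils, was at 0. The eosinophil genes Prg2 and Epx came from a single cell of the mouse 1 tdTomato-positive tube, which held 99.3% of 1442 Prg2 UMIs and 99.1% of 114 Epx UMIs.

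Divided into 3 equal ranges by their share of Elane UMIs (133, 133 and 134 cells), the progenitors changed in a graded way. No test was made, since the rule used Elane. Cebpe stood at 17.2 CPM in the low, 103 in the middle and 134 CPM in the high range. Fcgr3 stood at 23.1, 92.3 and 157 CPM, and Gfi1 at 26.4, 48.0 and 75.2 CPM. Ly6c2 stood at 227, 450 and 863 CPM, and Hspa5 at 835, 1074 and 1267 CPM. All 5 genes were higher in the high than in the low range in each of the 4 tubes. In the other direction went Angpt1, a niche factor made by stem cells, at 513, 303 and 102 CPM. Flt3 stood at 69.5, 31.9 and 10.9 CPM, Cd34 at 296, 228 and 125 CPM and Runx1 at 800, 524 and 309 CPM. These 4 genes were lower in the high than in the low range in each of the 4 tubes. So were Cebpa, at 73.8, 61.8 and 53.4 CPM, and the receptor gene Csf3r, at 79.0, 64.6 and 60.0 CPM. The other listed factors Cebpb, Cebpd, Spi1 and Myb were higher in the high range in each tube. The genes named are examples, and the share of all genes that moved one way was not counted. Irf8 was also lower where Elane was higher, at 178, 139 and 92.4 CPM, and Ccr2 at 62.4, 47.7 and 22.6 CPM. The low range held 32 and 12 cells of the tdTomato-positive tubes and 63 and 26 of the tdTomato-negative tubes. The high range held 48 and 7 cells of the tdTomato-positive tubes and 48 and 31 of the tdTomato-negative tubes.

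**Figure D3:**
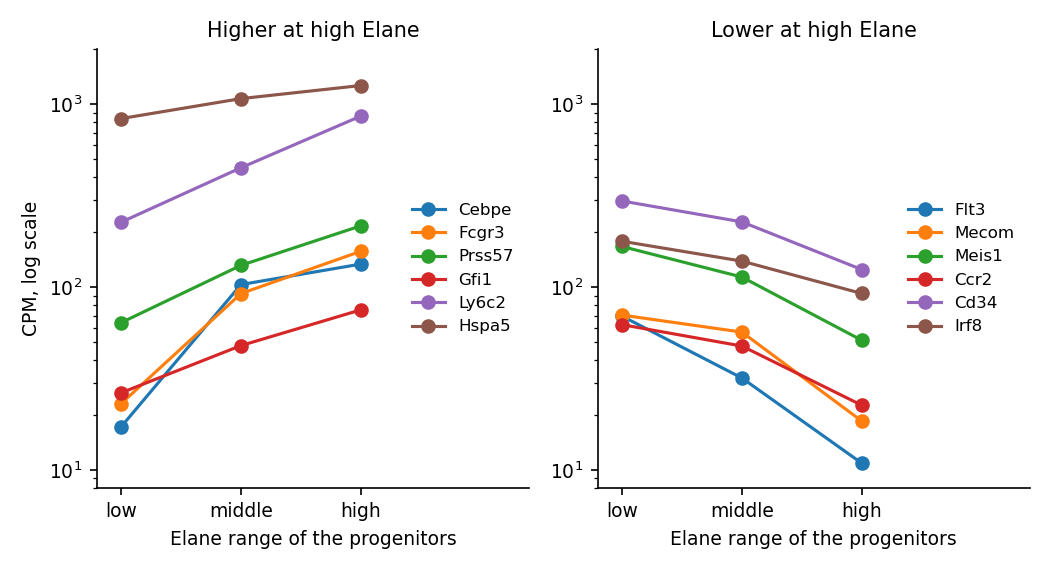
CPM (y axis, log scale) of 6 genes higher (left) and 6 genes lower (right) at high Elane, in the low, middle and high Elane ranges of the progenitors, each point the summed count of 133 or 134 cells of all tubes. Cebpe stands at 17.2 CPM in the low range and 134 CPM in the high range, and Flt3 at 69.5 and 10.9 CPM.

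Among the sorted cells, progenitors were more frequent in the tdTomato-positive than in the tdTomato-negative tube of mouse 1, while the intervals of the mouse 2 tubes overlapped. In mouse 1, 122 of 3900 tdTomato-positive cells (3.13%, exact 95% interval 2.60 to 3.72%) and 164 of 12762 tdTomato-negative cells (1.29%, 1.10 to 1.5%) were progenitors. In mouse 2, 27 of 3945 tdTomato-positive cells (0.684%, 0.452 to 0.994%) and 87 of 12435 tdTomato-negative cells (0.700%, 0.561 to 0.862%) were. The intervals cover counting error only. The tdTomato-positive tube was thus 1.84 percentage points higher in mouse 1, and in mouse 2 the difference was -0.0152 points. The mean share was 1.91 ± 1.73% in the tdTomato-positive and 0.992 ± 0.414% in the tdTomato-negative tubes (SD, n = 2). The difference of 0.914 points gave p = 1 in an exact permutation test over the 4 tubes, which does not use the pairing by mouse (two-sided; the smallest p this design allows is 0.333). With the gates exchanged within each mouse, an alternative chosen after seeing the data, p was also 1 (exact permutation test, two-sided; the smallest possible is 0.5), so neither test could pass with 2 mice. Without the mouse 1 tdTomato-positive tube the difference was -0.308 points, and without the mouse 2 tdTomato-positive tube 2.14 points. Both chemistries placed the mouse 1 gap at 1.84 points, while in mouse 2 it was -0.177 with GEM-X and 0.185 with v3.1. With cells thinned to 4000 UMIs, the mean shares were 1.5% and 0.721%.

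**Figure D4:**
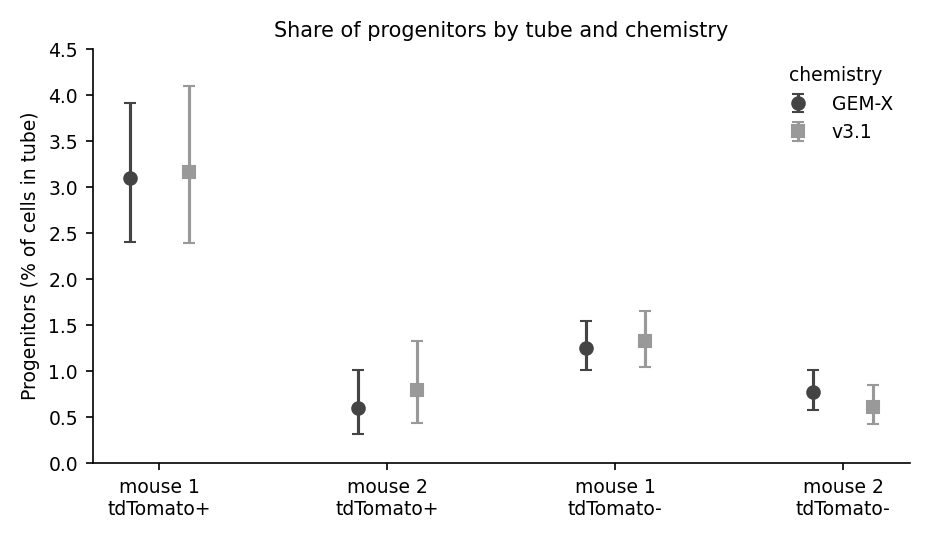
Progenitors as a percentage of the cells of each tube (y axis), GEM-X as circles and v3.1 as squares, with exact 95% intervals. The mouse 1 tdTomato-positive tube lies above the other 3 tubes with both chemistries, and the mouse 2 tubes do not separate.

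Within the progenitors, tdTomato-positive and tdTomato-negative tubes were compared to ask what neonatal Tppp3-Cre ancestry goes with in these cells. Of 10188 genes, 64 (0.628%) passed edgeR's quasi-likelihood test with the mouse as a block (Benjamini-Hochberg adjusted p below 0.05), 25 (0.245%) higher and 39 (0.383%) lower. The 25 include Ctsg and Ms4a3, which chose the cells and are not counted as results. The standard errors (SE) come from the fit, whose spread is pooled across genes, with n = 2 mice. The number of calls depended on the setting. Without the block 0 genes passed (482 at an unadjusted p below 0.05), and DESeq2 called 2. The fit without the cells marked by Scrublet, a doublet score, called 4. Marked cells are the highest-scoring 6% per chemistry, since Scrublet's own threshold called 0 GEM-X cells and 1 v3.1 cell. Fits that left out a tube had 1 tube in 1 gate and no mouse block, so their calls are not given. In them the median size of the 64 changes was 0.50 to 0.63, against 0.61 with all tubes and the block. The marked cells included 1 and 0 progenitors of the tdTomato-positive tubes and 6 and 3 of the tdTomato-negative tubes.

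**Figure D5:**
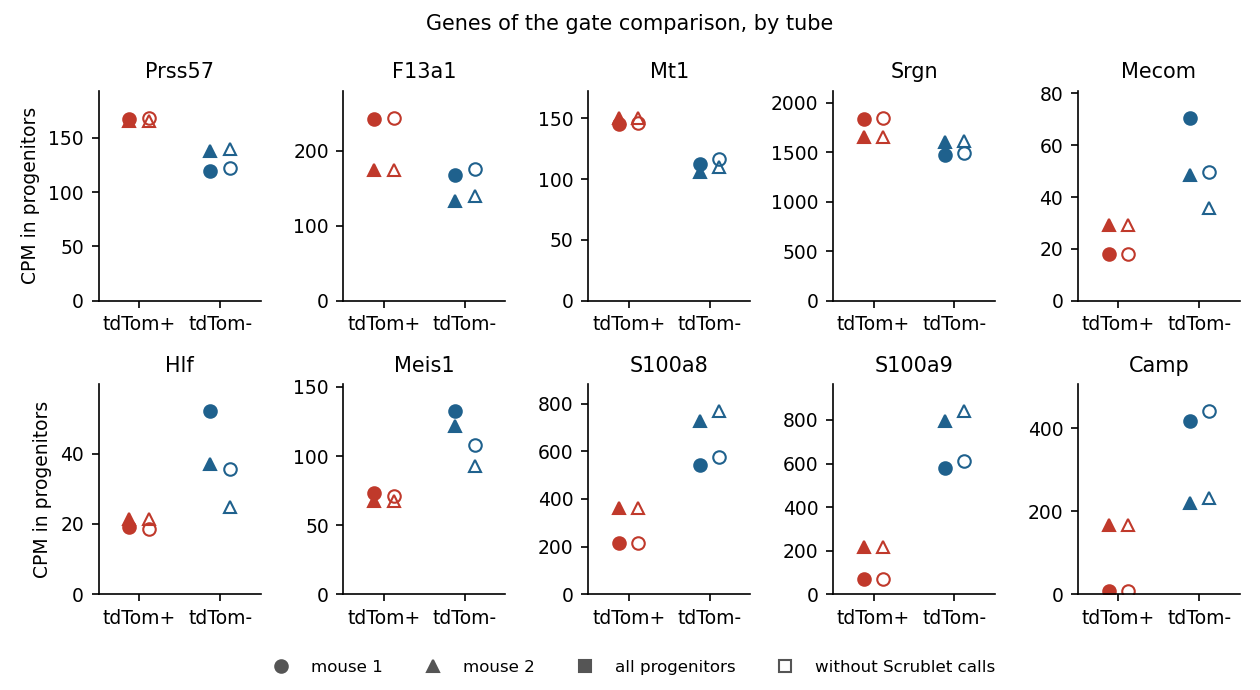
CPM in the progenitors (y axes, from 0) of 10 genes in tdTomato-positive (red, left) and tdTomato-negative (blue, right) tubes, mouse 1 as circles and mouse 2 as triangles, filled for all progenitors and open without the cells marked by Scrublet. Mecom stands at 18.1 and 29.1 CPM in the tdTomato-positive tubes and 70.5 and 48.5 CPM in the tdTomato-negative tubes, and leaving out the marked cells narrows the gap.

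Among granule genes, 3 of the 8 tested that the rule did not use rose in tdTomato-positive progenitors: Srgn, Prss57 and Prtn3. The median log2 fold change of the 8 was 0.17, against 0.00 over all genes tested. Such a shift was not particular to granule genes, with medians of 0.23 for the monocyte-dendritic and 0.20 for the folding list. The list medians ran from -1.15 (later neutrophil) to 0.85 (lymphoid, 2 genes tested). Prss57 stood at 168 and 166 CPM in the tdTomato-positive tubes and 119 and 138 in the tdTomato-negative tubes, and the gates did not overlap (log2 fold change 0.47 ± 0.11, adjusted p = 0.0247). Srgn stood at 1838 and 1656 CPM in the tdTomato-positive tubes and 1472 and 1601 in the tdTomato-negative tubes (0.25 ± 0.05, adjusted p = 0.00801), again without overlap. Here and below, non-overlap of 2 against 2 tubes is weak by itself, and its share over all genes was not counted. Prtn3 stood at 6958 and 5920 CPM in the tdTomato-positive tubes and 5739 and 5983 in the tdTomato-negative tubes (0.19 ± 0.04, adjusted p = 0.00801), and in mouse 2 the tdTomato-positive tube was the lower. Elane and Mpo also differed in direction between the mice. Mpo stood at 6039 and 5328 CPM in the tdTomato-positive tubes and 4970 and 5903 in the tdTomato-negative tubes and did not pass (0.12 ± 0.05, adjusted p = 0.377). Without the cells marked by Scrublet, the log2 fold changes of Srgn, Prss57 and Prtn3 were 0.22, 0.43 and 0.13, with edgeR adjusted p of 0.709, 0.601 and 0.922, and with dispersions fitted robustly, an alternative chosen after seeing the data, Prtn3 had 0.757.

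Of 10 monocyte-dendritic genes tested, F13a1 rose. It stood at 242 and 175 CPM in the tdTomato-positive tubes and 167 and 132 in the tdTomato-negative tubes (0.54 ± 0.10, adjusted p = 0.00260 by edgeR), and the gates did not overlap. Within the Irf8 range, where F13a1 is high, it stood at 615 and 299.6 CPM in the tdTomato-positive tubes (42 and 13 cells) and 369 and 362 in the tdTomato-negative tubes (61 and 27 cells), so the mice went different ways there. In mouse 2 the share of progenitors in that range, given above, was higher in the tdTomato-positive tube, and its part in the difference was not tested. Without the cells marked by Scrublet, F13a1 had a log2 fold change of 0.46 and an edgeR adjusted p of 0.407. Of 14 folding genes, Calr and Pdia6 (a disulfide isomerase) passed. Calr stood at 2321 and 1815 CPM in the tdTomato-positive tubes and 1897 and 1821 in the tdTomato-negative tubes (0.21 ± 0.05, adjusted p = 0.0362), so the gates overlapped and the difference lay in mouse 1. With dispersions fitted robustly, Calr and Pdia6 had edgeR adjusted p of 0.0961 and 0.0515. Pdia6 rose by 0.28 ± 0.07 (adjusted p = 0.0394). It stood at 643 and 595 CPM in the tdTomato-positive tubes and 538 and 524 in the tdTomato-negative tubes. Among the genes named by the rule on mean level and sign, the interferon-inducible Ifi209 rose most, at 26 and 58.3 CPM in the tdTomato-positive tubes and 19.0 and 17.7 in the tdTomato-negative tubes (0.94 ± 0.23, adjusted p = 0.0333). Mt1 (metallothionein 1) stood at 145 and 150 CPM in the tdTomato-positive tubes and 113 and 106 in the tdTomato-negative tubes (0.46 ± 0.11, adjusted p = 0.0333). Ribosomal protein Rps2, Ftl1 (ferritin light chain), Gpx1 (glutathione peroxidase) and Eif5a rose by 0.21 to 0.24.

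Of 7 stem cell genes tested, Mecom, Hlf and Meis1 fell in tdTomato-positive progenitors, with a list median of -0.80. Mecom stood at 18.1 and 29.1 CPM in the tdTomato-positive tubes and 70.5 and 48.5 in the tdTomato-negative tubes (-1.62 ± 0.20, adjusted p = 1.67e-06). Hlf stood at 19.1 and 21.5 CPM in the tdTomato-positive tubes and 52.0 and 37.2 in the tdTomato-negative tubes (-1.25 ± 0.20, adjusted p = 1.62e-04), and Meis1 at 73.0 and 67.5 CPM in the tdTomato-positive tubes and 132 and 122 in the tdTomato-negative tubes (-0.80 ± 0.12, adjusted p = 9.06e-05). The gates did not overlap in any of the 3, but the test had picked these genes on the same values, so this adds little. The summed level of all 12 stem cell genes was 144 and 144 CPM in the tdTomato-positive progenitors and 316 and 252 CPM in the tdTomato-negative ones. Their part in the other differences was not tested. Without the cells marked by Scrublet, Mecom stood at 17.9 and 29.1 CPM in the tdTomato-positive tubes and 49.6 and 35.8 in the tdTomato-negative tubes, and the log2 fold changes of Mecom, Hlf and Meis1 were -1.13, -0.73 and -0.52, with edgeR adjusted p of 0.365, 0.714 and 0.490. Pcdh7, Samd12, Prkg1 and Tcf7l2, also low in the progenitors, fell by 1.48 to 2.12.

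Of 9 later neutrophil genes tested, 6 fell: S100a8, S100a9, Camp, Chil3, Ngp and Fcnb (ficolin B, a lectin of granules). S100a8 stood at 215 and 360 CPM in the tdTomato-positive tubes and 544 and 729 in the tdTomato-negative tubes (-1.15 ± 0.08, adjusted p = 1.59e-13). With GEM-X counts alone, Camp was still among the gate calls, and S100a8, S100a9, Chil3, Ngp and Fcnb were not. Fcnb stood at 10.8 and 44.5 CPM in the tdTomato-positive tubes and 34.7 and 46.2 in the tdTomato-negative tubes, with overlap (-0.99 ± 0.24, adjusted p = 0.0347). Ngp had 4 and 1 UMIs in the tdTomato-positive tubes and 665 and 74 in the tdTomato-negative tubes. These UMIs came from the few cells named above: 11 cells held Ngp and 1 of them 41.4% of it, so the values set few cells against few cells. With dispersions fitted robustly, Camp, S100a9 and Fcnb had edgeR adjusted p of 0.91, 0.738 and 0.233. No gene of the transcription factor, oxidase, receptor, S phase, mitosis, megakaryocyte, erythroid or lymphoid lists was among the 64. Cebpe stood at 93.7 and 70.5 CPM in the tdTomato-positive tubes and 67.7 and 124 in the tdTomato-negative tubes (0.13 ± 0.15, adjusted p = 0.918).

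The loci behind the sort gave little signal. Tppp3 had 1 UMI in the 400 progenitors. Gt(ROSA)26Sor, a non-coding RNA of the Rosa26 locus (mm10, chromosome 6, 113067428 to 113077333, minus strand), where such reporters are often inserted, stood at 16.5 and 9.20 CPM in the tdTomato-positive tubes and 21.7 and 15.9 in the tdTomato-negative tubes. The difference did not pass edgeR's test (-0.41 ± 0.26, adjusted p = 0.761).

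An interaction term then asked whether the gate difference was different in the progenitors from that in the other cells of the same tubes. Of 14517 genes, 83 (0.572%) passed, 15 (0.103%) with a higher and 68 (0.468%) with a lower difference in the progenitors (edgeR, tube as a block). Elane is among the 68 and is not counted as a result. The calls went to 0 without the block (753 at an unadjusted p below 0.05) and to 15 with DESeq2. Interaction fits that left out a tube had 1 tube in 1 gate and also left out the block, so their calls are not given. In them the median size of the 83 changes was 0.9996 to 1.217, against 1.022 with all tubes and the block. Mecom had a larger gap in the progenitors, given above, than in the other cells, which held 490 and 553 CPM in the tdTomato-positive tubes and 519 and 557 in the tdTomato-negative tubes. The difference between these gate differences was -1.43 ± 0.17 (edgeR adjusted p = 7.46e-14), and it passed with DESeq2 (adjusted p = 0.00134) and without the cells marked by Scrublet (1.57e-05). It did not pass without the block (edgeR adjusted p = 0.640), and Mecom was not among the 8 calls with GEM-X counts alone. Mt1 was higher by 0.76 ± 0.15 (edgeR adjusted p = 3.96e-04), with 11.3 and 11.6 CPM in tdTomato-positive and 9.43 and 21.7 in tdTomato-negative other cells. Its log2 gate differences in the progenitors and the other cells were 0.36 and 0.24 in mouse 1, and 0.50 and -0.84 in mouse 2, so the contrast lay mostly in mouse 2. It did not pass with DESeq2 (adjusted p = 0.996) or with dispersions fitted robustly (edgeR adjusted p = 1). Among the genes kept by the rule on mean level and sign, Cxcl9 had the largest positive value, 5.90 ± 0.71, but it came from 6 progenitors and 1 of them held 70.8% of its UMIs.

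The chemistries were compared within the same 4 tubes. Of 9016 genes tested in the progenitors, 3172 (35.2%) passed between GEM-X and v3.1 with the tube as a block, 1673 (18.6%) higher and 1499 (16.6%) lower. The Cell Ranger version went with the chemistry, so chemistry and version cannot be told apart. Histone genes had the largest rises. Hist1h3c, a histone H3 gene, stood at 311, 324, 390 and 401 CPM with GEM-X (mouse 1 and mouse 2 tdTomato-positive, then tdTomato-negative) and at 18.3, 30.2, 25.8 and 19.6 CPM with v3.1 (log2 fold change 3.98 ± 0.12, edgeR adjusted p = 5.48e-39). Many histone genes are near-identical copies, so their single values are uncertain. Elane, which chose the cells in both chemistries and is given as a description, averaged 5946 ± 598 CPM with GEM-X and 5630 ± 912 with v3.1 (SD, n = 4 tubes). Mpo rose by 0.39 ± 0.05, at 6223 ± 514 CPM with GEM-X and 4672 ± 481 with v3.1, and Prtn3 fell by 0.16 ± 0.05. Of 16 genes of G2 and mitosis 10 rose and 1 fell with GEM-X, led in level by Mki67 (723 ± 89.6 against 242 ± 68.2 CPM). Of 14 folding genes 8 rose and 3 fell, and Hspa5 rose by 0.96 ± 0.07. The factor gene Cebpe did not pass (-0.08 ± 0.12, adjusted p = 0.634), Irf8 rose by 0.42 ± 0.09 and Runx1 fell by 0.74 ± 0.08.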

How the data were processed

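Gene and hashtag UMI counts per cell barcode were deposited by the authors as raw count matrices for 32285 genes and 4 hashtags. Per the file headers, Cell Ranger 8.0.1 made the GEM-X counts and 7.1.0 the v3.1 counts, while the submitters' processing notes name 7.0.0 and mm10. Which matrix is which chemistry is not labelled, and was read from matrix names and software versions. The key from hashtag to mouse and gate came with the deposited data.

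The filters left out 371 GEM-X and 1034 v3.1 barcodes on genes or mitochondrial UMIs, and 1846 and 1973 on hashtags, which removes doublets between tubes. Doublets within a tube remain. Scrublet (scanpy 1.11.5) set no usable threshold by itself, so the highest-scoring 6% of cells per chemistry were marked and left out as an alternative. Levels are CPM of counts summed per tube. In log2 ratios of progenitors over other cells, 0.5 CPM was added.

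Counts summed per tube (gate; mouse as block), per tube and class (interaction; tube as block) and per tube and chemistry (tube as block) were tested with edgeR 4.0.16 (R 4.3.3; TMM, filterByExpr, quasi-likelihood test, Benjamini-Hochberg adjustment), and DESeq2 1.42.0 was an alternative. The 2 tubes of each mouse share an animal, which is the pairing. Its check, the correlation of the mouse 1 deviations from the gate means between the positive and negative tubes, gave r = 0.26 over 5331 genes, which are not replicates. With 2 mice, p-values rest on a spread pooled over genes, and the interaction used 1 dispersion for sums of very different size.

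Named genes were, each way, up to 10 called genes of largest fold change that averaged 10 CPM or more and kept their sign in each mouse (for chemistry, in each of the 4 tubes), plus list members and up to 30 leading genes. Unnamed gene models were skipped. The members and the gene lists were chosen with earlier results of these data known. The rule's 3 genes were in the fits with all others, but their differences are not used as results. Promoter sequences are from RefSeq (GRCm38.p6) and coordinates from GENCODE M21 (mm10). Alternatives covered the block, DESeq2, size factors, count filters, Scrublet's marks, single chemistries, Elane limits of 3 and 10 and left-out tubes. The gate and interaction fits that left out a tube also left out the block.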

Additional observations from a re-analysis of the deposited data

Results flagged for a closer look

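The gate difference in the share of progenitors was 1.84 percentage points in mouse 1 and -0.0152, about 0, in mouse 2. The mouse 2 value turned positive with v3.1 counts alone (0.185) and with at least 10 Elane UMIs (0.0145). The difference between the mice was not tested.

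Gate differences that differed between the progenitors and the other cells of the same tubes by edgeR's interaction test were, on the log2 scale, positive for Cxcl9 (5.90), Mt1 (0.76), Rps2 (0.25), Rpl41 (0.21), Rpl5 (0.17), mt-Co3 (0.17), Rpl9 (0.16), Plac8 (0.16), Rps12 (0.15) and Rps4x (0.15). They were negative for Ngp (-5.56), Chil3 (-3.38), Camp (-3.12), S100a9 (-2.70), Samd12 (-2.08), Pcdh7 (-2.06), Prkg1 (-1.55), Tcf7l2 (-1.47), Mecom (-1.43) and S100a8 (-1.33). With GEM-X counts alone S100a9 (0.16) and S100a8 (0.71) were positive, and S100a8 passed the test in that opposite direction. Cxcl9, Ngp, Chil3, Camp, S100a9 and S100a8 came from 6, 11, 15, 24, 29 and 60 progenitors. Ribosomal protein genes have near-identical copies, so their values are uncertain.

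Of 42 groups of 4 tubes looked at in the chemistry comparison, 6 had a tube that stood apart, where chance gives about 1 in 20. The mouse 2 tdTomato-positive tube, which held 27 progenitors, was the tube that stood apart for 4 genes: Hist1h3f with v3.1 (3.02 CPM), Hist1h3b with v3.1 (9.05 CPM), Lrrc4 with GEM-X (31.2 CPM) and Wdr6 with v3.1 (39.2 CPM). That tube held 13 progenitors with GEM-X and 14 with v3.1, the latter with 331619 UMIs in all. Its lowest values thus rest on very few UMIs. The mouse 2 tdTomato-negative tube stood apart for Tjap1 with GEM-X (8.62 CPM) and Mthfs with v3.1 (39.3 CPM).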

How the results depend on the processing

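The 64 gate calls became 0 without the replicate block, 2 with DESeq2 (S100a8 and Ngp), 4 without the cells marked by Scrublet (S100a8, S100a9, Chil3 and Ngp), 9 with GEM-X counts alone, 28 with v3.1 counts alone, 14 with at least 10 Elane UMIs and 1 to 29 when a tube was left out, against 102 with DESeq2's size factors. In the fit without marked cells 63 of the 64 were tested, all with the same sign, and their median size was 0.44 against 0.61. The 83 interaction calls became 0 without the block, 15 with DESeq2, 38 without marked cells and 8 with GEM-X counts alone. S100a9 (0.16) and S100a8 (0.71) turned positive in the interaction with GEM-X counts alone, where S100a8 passed in that direction. The cause was not tested. The 3172 chemistry calls became 1282 with DESeq2 and 2113 to 3044 when a tube was left out. The gate difference in the share of progenitors ran from -0.308 to 2.14 percentage points when a tube was left out, the lowest without the mouse 1 tdTomato-positive tube, and kept its sign under the other alternatives tried. Depth limits most the mouse 2 tdTomato-positive tube, with 27 progenitors. Among the values of named genes under alternatives that leave out no tube, 105 lost and 93 kept their call for the gates, 72 lost and 85 kept it for the interaction, and 6 lost and 114 kept it for the chemistries.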
